A study of Mus musculus with 6 samples.

Results

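Keratins are the proteins of the intermediate filaments of epithelial cells, and 49 keratin genes were measured in RNA of mouse ear skin taken at postnatal day 3, among 18404 genes in the table. They were taken as every gene whose symbol is Krt followed by a number alone, which leaves out the 4 keratins with a letter in the symbol (Krt6a, Krt6b, Krt33a and Krt33b) and the 53 genes of keratin-associated proteins. The study set 3 pups with a tamoxifen-induced, endothelial-specific knockout of Kdr (ecko) against 3 littermate controls. Kdr encodes VEGFR2, the main receptor for VEGF-A on endothelial cells, whereas keratins are made by the epithelium. Both groups are recorded as tamoxifen treated, injected from postnatal day 1 at 60 µg per day, and the series title gives 48 h. The Cre line and the genotype of the controls are not given in the sources used here. The labels do not say whether replicates came from separate litters, and the p-values therefore cover just the spread seen among these 6 libraries. Kdr itself fell in ecko, with 348, 431 and 370 counts against 1599, 1860 and 1337 in the controls. That is 21.72 ± 2.402 against 89.96 ± 12.92 CPM (counts per 1000000, on scaled library sizes; mean ± SD, n = 3 each). The log2 fold change was -2.05 ± 0.12 (SE) and the edgeR adjusted p was 0.0002.

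Keratins come in 2 families, acidic type I and neutral to basic type II, and a filament needs 1 partner of each. Basal cells of the epidermis make keratin 5 with keratin 14, and cells that leave the basal layer switch to keratin 1 with keratin 10. In the hair follicle, the inner root sheath that moulds the growing shaft has its own keratins, and the shaft itself is built from hard keratins cross-linked by keratin-associated proteins. Keratin 8 and keratin 18 are the pair of single-layered and glandular epithelia.

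The 49 genes lie in 2 clusters of the mouse genome (RefSeq, build GRCm38.p6). The 24 type I genes of chromosome 11 span positions 99279959 to 100269951, with the keratin-like gene Krt222 beside them. The 23 type II genes of chromosome 15 span 101348315 to 102004342, and the type I gene Krt18 (102028216 to 102032026) lies next to its type II partner Krt8 (101996711 to 102004342). RefSeq promoters of the same build were at hand for 35 of the 49 genes. The 120 bases before the start site are shown for 8 genes that stand for the blocks described here, 5′ to 3′ on the strand of the gene, with the TATA motif TATAAA in capitals where it occurs. The first is the basal gene Krt5 (chr15:101712906-101713025, minus strand), then the suprabasal gene Krt10 (chr11:99389365-99389484, minus), whose listed start site lies inside the span of the gene. Krt71 (chr15:101743098-101743217, minus) and Krt25 (chr11:99322952-99323071, minus) are an inner root sheath pair. Krt31 (chr11:100050552-100050671, minus) and Krt34 (chr11:100041555-100041674, minus) are hair shaft genes, and Krt8 (chr15:102004343-102004462, minus) and Krt18 (chr15:102028096-102028215, plus) are the simple epithelial pair.
Krt5: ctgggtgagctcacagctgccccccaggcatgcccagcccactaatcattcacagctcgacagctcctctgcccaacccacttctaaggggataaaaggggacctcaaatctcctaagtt
Krt10: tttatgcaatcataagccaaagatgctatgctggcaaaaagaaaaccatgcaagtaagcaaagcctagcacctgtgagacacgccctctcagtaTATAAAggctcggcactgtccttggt
Krt71: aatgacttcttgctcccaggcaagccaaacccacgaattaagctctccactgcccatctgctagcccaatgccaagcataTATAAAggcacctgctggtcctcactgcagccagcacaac
Krt25: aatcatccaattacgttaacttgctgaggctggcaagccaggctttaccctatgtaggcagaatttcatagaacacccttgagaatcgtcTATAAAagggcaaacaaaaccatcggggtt
Krt31: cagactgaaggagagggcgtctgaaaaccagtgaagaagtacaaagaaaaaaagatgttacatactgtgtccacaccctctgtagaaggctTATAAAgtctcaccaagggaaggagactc
Krt34: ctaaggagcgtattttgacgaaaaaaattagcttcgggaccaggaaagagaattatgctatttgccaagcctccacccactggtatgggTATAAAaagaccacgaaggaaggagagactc
Krt8: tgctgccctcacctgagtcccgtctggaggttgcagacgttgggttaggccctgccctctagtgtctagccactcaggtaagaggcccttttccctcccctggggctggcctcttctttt
Krt18: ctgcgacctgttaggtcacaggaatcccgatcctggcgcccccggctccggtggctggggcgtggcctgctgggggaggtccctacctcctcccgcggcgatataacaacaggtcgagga

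TATAAA, searched on both strands of the 120 bases, was present in 14 of the 35 keratin promoters (40.0%), against 6.8% of 27025 RefSeq promoters. By block it was in 6 of 7 inner root sheath promoters, 4 of 8 hair, 1 of 5 suprabasal, 1 of 5 simple epithelial, 2 of 5 mucosal and other, 0 of 3 companion layer and stress and 0 of 2 basal ones. As for Krt10, the listed start sites of Krt14, Krt36, Krt78, Krt2 and Krt12 lie inside the span of the gene. The bases searched there are not those in front of the whole gene, which limits the block counts, that of the basal block included. Strings that differ from it by 1 letter, such as gataaa in the Krt5 promoter shown, were not counted. Further motifs were searched in the same way. The AP-1 motif TGANTCA was in 0 of 35 keratin promoters and 3.4% of all, the AP-2 motif GCCNNNGGC in 3 (8.6%) and 8.0% of all, and the LEF1 and TCF motif CTTTGA in 3 (8.6%) and 6.2% of all. A match describes letters in this window and is not a measured binding site.

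Keratin transcripts made up 2.403%, 2.662% and 2.436% of all counts in ecko libraries 1, 2 and 3, and 2.854%, 2.416% and 2.856% in control libraries 1, 2 and 3. Library totals ran from 16987130 to 17979182 expected counts. Libraries ecko 3 and control 2 stood apart in being almost without Y-linked reads. Control 3 differed most from the rest: the chi-square per gene was 13.25 to 19.76 in pairs with control 3 and 4.18 to 11.47 in all other pairs. Krt1 and Krt10 alone held 50.3% to 62.0% of the summed keratin CPM of a library. Of the 49 genes, 42 had a mean count of at least 10 over the 6 libraries and were compared, and all of these were in the edgeR test of 14920 genes. The other 7 were near the limit of detection. Krt88 had 0 counts in all 6 libraries, where 3 counts, or 0.166 to 0.175 CPM, is the limit that a count of 0 allows. Krt76, a keratin of the palate, had 2 counts in control 2 and 0 elsewhere. Krt2, a keratin of the upper epidermis, had 2 to 7 counts, Krt84 1 to 6, Krt42 3 to 9, Krt24 3 to 14 and Krt13, a mucosal keratin, 1 to 25. The epithelial identity list (Cdh1, Epcam, Trp63 and 8 others) was detected in full, with 11 of 11 genes tested, a median log2 fold change of -0.004 and 0 genes called. In it, the splicing factor gene Esrp2 had 109 ± 2.88 CPM in ecko, against 102 ± 7.86 CPM in the controls, and Ovol1, a regulator of epidermal differentiation, 55.4 ± 3.31 CPM in ecko, against 48.4 ± 11.8 CPM in the controls.

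**Figure D1:**
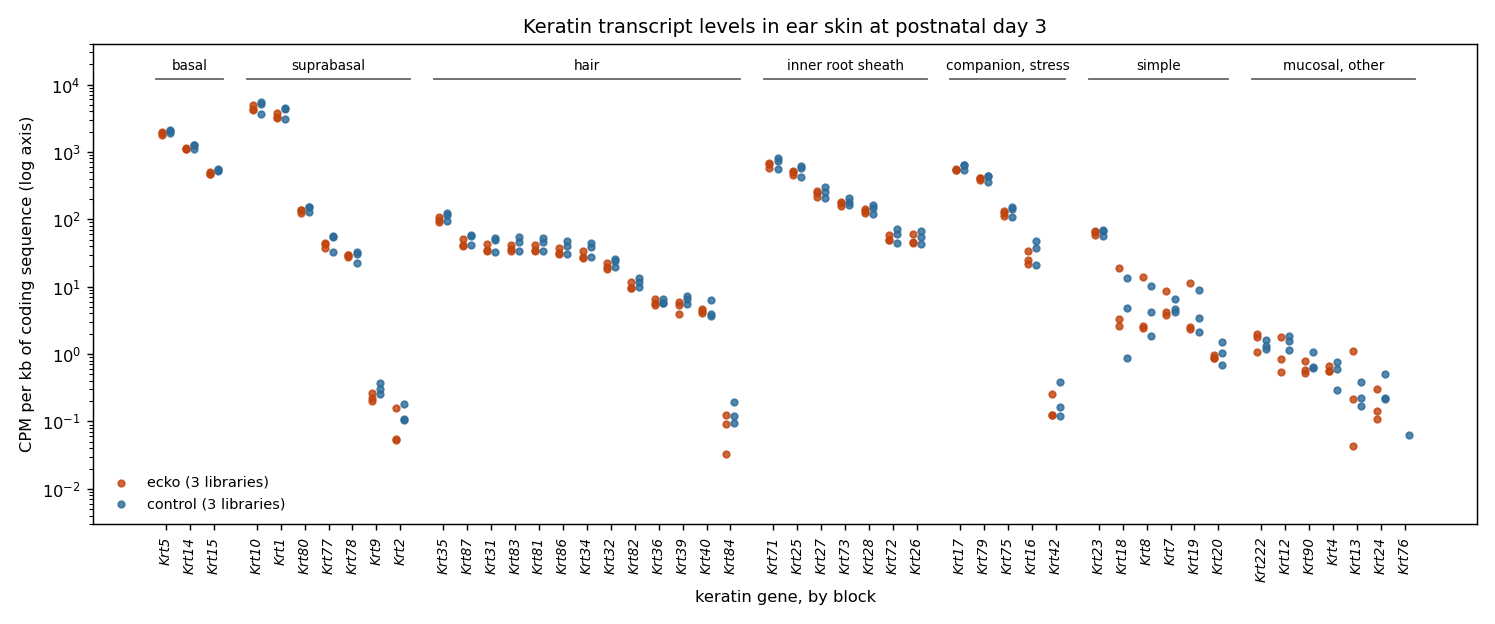
Level of each keratin in CPM per kb of coding sequence on a log axis, by block, with 1 point per library (ecko left, control right of each tick). Values of 0 are not drawn. Krt10, Krt1, Krt5 and Krt14 stand highest. The spread between libraries is widest in Krt13, which has 1 to 25 counts, and in Krt18 and Krt8.

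Per kb of coding sequence, Krt10 was the most abundant at 4645 CPM per kb over the 6 libraries, followed by Krt1 (3693), Krt5 (1956) and Krt14 (1171). Next came the inner root sheath gene Krt71 (674), the follicle gene Krt17 (576), the inner root sheath gene Krt25 (519), Krt15 (512) and the follicle duct gene Krt79 (405). The order of near values depends on the length used. Krt25 has 1338 coding and 1989 transcript bases, and Krt15 has 1368 and 1700. Without division by length, Krt15 (701 CPM) stood above Krt25 (694 CPM). The hair shaft keratins reached 105 CPM per kb in Krt35 and lay between 33.1 and 48.4 in Krt87, Krt31, Krt83, Krt81, Krt86 and Krt34. Order among these 6 is uncertain, since they share sequence. Among the 49 genes they are the 6 whose counts were not whole numbers, as happens when reads are split between genes, and 17.05% to 43.3% of their 50-base windows also occur in another keratin's transcripts. The highest share among the other 43 was 13.9%, in Krt14, which shares most with Krt16. Of the 49 genes, 28 shared no window with another keratin.

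No keratin was called between ecko and control at an adjusted p of 0.05 by edgeR, with Benjamini-Hochberg adjustment over all 14920 genes. Over all genes edgeR called 0% higher and 0.0067% lower, that 1 gene being Kdr. DESeq2 and limma-voom each called 0 of the 42 as well; DESeq2 called 0.583% of all genes higher and 0.174% lower. At an unadjusted p under 0.05 edgeR listed 1 of the 42 keratins, Krt15, on the lower side. The share over all genes was 4.1% lower and 4.92% higher. Means were lower in ecko in 35 of the 42 keratins and higher in 7, while 50.5% of all genes had a lower mean. The median log2 fold change of the 42 was -0.13, against -0.002 over all genes. With 1 library left out it lay between -0.25 (without control 1) and -0.09 (without control 2), and in the 4 libraries that remain without ecko 3 and control 2 it was -0.07. Groups did not overlap in 1 of the 42 keratins, Krt15, lower in ecko, while 8.11% of all genes were so on the lower and 7.55% on the higher side. As all of this is measured in whole skin, fewer cells of a type and less RNA per cell cannot be told apart.

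**Figure D2:**
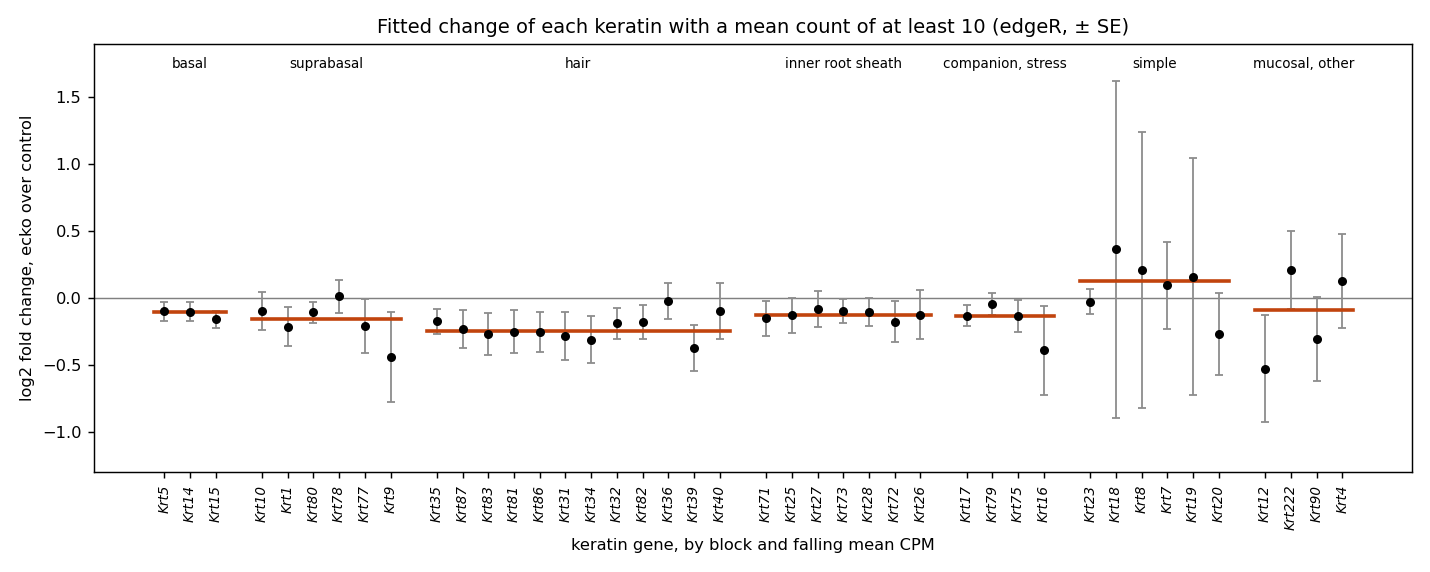
Log2 fold change of ecko over control for the 42 keratins with a mean count of at least 10, from the edgeR fit, with bars of 1 SE and a coloured line at the median of each block. Most points of the epidermal and follicle blocks lie just below 0, with medians of -0.10 (basal), -0.16 (suprabasal), -0.24 (hair), -0.12 (inner root sheath) and -0.13 (companion layer and stress), and the SE is widest for Krt18, Krt8 and Krt19.

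The 3 basal keratins were all lower on average in ecko, and their median log2 fold change was -0.10. Krt5, the type II keratin of basal cells (chromosome 15, 101707069 to 101712905), had 3136, 3405 and 3323 CPM in ecko, against 3567, 3296 and 3698 CPM in the controls. Its partner Krt14 (chromosome 11, 100203162 to 100207510) had 1617, 1679 and 1627 CPM in ecko, against 1826, 1620 and 1834 CPM in the controls. In both, control 2 lay among the ecko values and the other controls stood above them. The log2 fold changes were -0.10 ± 0.07 (SE) for each, with edgeR adjusted p of 0.694 and 0.681.

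Krt15 is a type I keratin of basal cells and of the hair follicle bulge. Among the 42 keratins compared, which leave out Krt6a, only Krt15 had separate groups. It had 643, 647 and 697 CPM in ecko, against 714, 745 and 758 CPM in the controls, so that the highest ecko library lay below the lowest control. The fold was 0.897 and its log2 value -0.16 ± 0.06 (SE), at an unadjusted p of 0.0314 and an edgeR adjusted p of 0.531. With each library left out in turn the log2 fold change stayed between -0.20 and -0.13. All 3 basal keratins were highest in control 3 and lowest in ecko 1. Control 3 was also the library with the lowest summed level of 13 skeletal muscle genes, 6156 CPM, against 10280, 9213 and 8450 CPM in ecko, against 10900 and 9096 CPM in the other controls. Their part in the keratin values was not tested, and the basal median without control 3 was -0.07. Within that muscle list 0 genes were called, and the embryonic myosin gene Myh3 (121 ± 2.39 CPM in ecko, 88.7 ± 29.96 CPM in the controls) and the actinin gene Actn3 (40.9 ± 3.74 CPM in ecko, against 44.2 ± 5.82 CPM in the controls) had the smallest p.

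Of 13 other genes of basal keratinocytes (integrins, laminins, Trp63 and others) 0 were called, 6 had a lower mean in ecko, and the median log2 fold change was 0.005. The cytoskeletal linker gene Dst had 470 ± 87.0 CPM in ecko, against 351 ± 32.8 CPM in the controls, without overlap (log2 fold change 0.42 ± 0.13 SE, edgeR adjusted p 0.461). Ccnd2 had 590 ± 18.25 CPM in ecko, against 640 ± 31.8 CPM in the controls, also without overlap but on the lower side. Groups did not overlap in 1 of the 13 on each side, against 7.55% of all genes on the higher and 8.11% on the lower side. Cdh3, the P-cadherin gene, had 158 ± 10.96 CPM in ecko, against 140 ± 6.03 CPM in the controls (edgeR adjusted p 0.530).

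Among the 6 suprabasal keratins compared 5 were lower on average in ecko, their median log2 fold change was -0.16, and in every one the groups overlapped. Krt10 (chromosome 11, 99385254 to 99397449), the type I keratin of the spinous layer, had 6991, 8284 and 7415 CPM in ecko, against 9185, 6227 and 8805 CPM in the controls. Krt1 (chromosome 15, 101845426 to 101850786), its type II partner, had 6032, 7328 and 6251 CPM in ecko, against 8434, 5876 and 8418 CPM in the controls. For both, control 2 was the lowest of the 6 libraries and the other controls were the highest. The log2 fold changes were -0.09 ± 0.14 (SE) for Krt10 and -0.21 ± 0.14 (SE) for Krt1, with edgeR adjusted p of 0.860 and 0.677. For Krt10 the value was -0.25 without control 2, 0.007 without control 1 and -0.02 without control 3. For Krt1 it was -0.37 without control 2, -0.13 without control 1 and -0.13 without control 3.

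The other suprabasal keratins were far less abundant. Krt80, a keratin of differentiated keratinocytes, had 188, 185 and 167 CPM in ecko, against 173, 203 and 205 CPM in the controls (log2 fold change -0.11 ± 0.08 SE, edgeR adjusted p 0.695). Krt78 had 96.1, 94.1 and 87.5 CPM in ecko, against 96.6, 73.0 and 106 CPM in the controls, and was the 1 suprabasal member with a higher mean in ecko (0.01 ± 0.12 SE). Krt77 had a log2 fold change of -0.21 ± 0.20 (SE). It was lowest in control 1, with 56.5 CPM, and highest in control 3, with 96.1 CPM. Krt9, the keratin of palms and soles, was at 0.512 ± 0.070 CPM in ecko, against 0.694 ± 0.128 CPM in the controls (log2 fold change -0.44 ± 0.34 SE). Of 20 other suprabasal genes 0 were called and 14 were lower on average in ecko, the median log2 fold change being -0.02. The transglutaminase gene Tgm1, which cross-links the cornified envelope, had 69.5 ± 3.36 CPM in ecko, against 79.0 ± 8.65 CPM in the controls, without overlap, and Grhl3, a regulator of the barrier, 47.7 ± 3.56 CPM in ecko, against 39.0 ± 8.80 CPM in the controls. Neither passed, with edgeR adjusted p of 0.562 and 0.611.

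Ratios between partner keratins within a library do not depend on the scaling of libraries. Per coding length, the ratio of Krt1 to Krt10 was 0.760, 0.779 and 0.743 in ecko and 0.809, 0.831 and 0.842 in the controls. Every ecko library lay below every control, with 0.761 ± 0.018 in ecko and 0.827 ± 0.017 in the controls (SD, n = 3 each). In an exact two-sided permutation test this difference had p = 0.1, the smallest that 3 against 3 libraries allow, and the value adjusted over the 12 ratios computed was 0.4. The log2 difference was -0.12, and lay between -0.14 and -0.10 with each library left out in turn. The ratio of type II to type I keratins also had groups without overlap, over the suprabasal block (0.806 ± 0.018 in ecko, 0.875 ± 0.027 in the controls) and over all keratins (0.896 ± 0.009 in ecko, 0.932 ± 0.020 in the controls). Both hold Krt1 and Krt10 and add no separate evidence.

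The other 9 ratios overlapped between the groups. Per transcript length in place of coding length, the inner root sheath ratio of type II to type I did not overlap either (0.917 ± 0.017 in ecko, 0.938 ± 0.005 in the controls; exact permutation p = 0.1, adjusted 0.3). Krt5 to Krt14 was 1.67 ± 0.05 in ecko and 1.67 ± 0.04 in the controls. Krt71 to Krt25, of the inner root sheath, was 1.29 ± 0.03 in ecko and 1.31 ± 0.01 in the controls. The summed suprabasal to basal ratio was 2.22, 2.50 and 2.22 in ecko and 2.63, 1.97 and 2.50 in the controls, with the lowest value again in control 2.

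**Figure D3:**
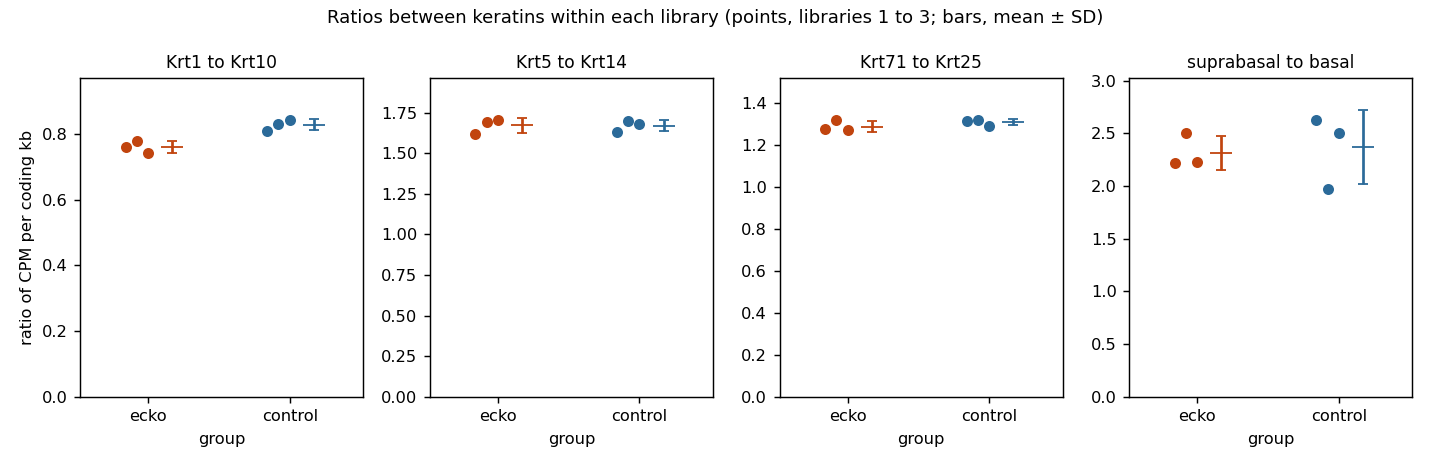
Ratios of CPM per coding kb within each library for 3 partner pairs and for the summed suprabasal against basal keratins, with ecko left and control right, points for libraries 1 to 3 and bars for mean ± SD (n = 3 each). In Krt1 to Krt10 the ecko points (0.743 to 0.779) lie below the control points (0.809 to 0.842), and in the other 3 panels the groups overlap.

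All 12 hair keratins compared were lower on average in ecko, their median log2 fold change was -0.24, and in all 12 the groups overlapped. Krt35, an early keratin of the shaft matrix and cuticle (chromosome 11, 100092192 to 100096224), was the most abundant. It had 145, 133 and 125 CPM in ecko, against 130, 168 and 156 CPM in the controls (log2 fold change -0.17 ± 0.10 SE, edgeR adjusted p 0.617). Krt87 had 76.1, 59.9 and 62.2 CPM in ecko, against 62.0, 87.1 and 84.0 CPM in the controls (-0.23 ± 0.14 SE). In it and in the shaft keratins Krt83 and Krt81, control 2 was highest, then control 3, then ecko 1. Krt83 had 58.9, 49.2 and 52.0 CPM in ecko, against 48.9, 78.1 and 65.6 CPM in the controls (-0.27 ± 0.16 SE). Krt81 had 60.7, 49.2 and 51.02 CPM in ecko, against 48.5, 76.4 and 66.6 CPM in the controls (-0.25 ± 0.16 SE).

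Control 2 was the highest library in 11 of the 12 genes, and control 1 was the lowest in 4, as were ecko 2 and ecko 3 in 4 each. Krt31 and Krt34, whose promoters are shown above, had log2 fold changes of -0.28 ± 0.18 and -0.31 ± 0.17 (SE). Krt86 had -0.25 and the cuticle keratins Krt32 and Krt82 had -0.19 and -0.18. Krt39, which had the smallest p of the block, had 8.51, 7.63 and 5.62 CPM in ecko, against 8.09, 10.5 and 9.57 CPM in the controls (-0.37 ± 0.17 SE, edgeR adjusted p 0.569). Krt36 and Krt40, with -0.02 and -0.09, lay nearest to 0. Without control 2 the block's median was -0.10, without control 1 it was -0.39, and in the 4 libraries with Y-linked reads, which leave out ecko 3 and control 2, it was -0.08.

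Genes of keratin-associated proteins, which bind hair keratins in the shaft, followed the same libraries. All 45 that could be tested were lower on average in ecko, at a median of -0.30 on the log2 scale, and 0 were called. Their summed level was 694, 516 and 535 CPM in ecko, against 536, 862 and 720 CPM in the controls, so that control 1 lay among the ecko values. Krtap4-6 had 6.86 ± 0.49 CPM in ecko, against 10.0 ± 2.53 CPM in the controls, and Krtap3-1 28.2 ± 1.91 CPM in ecko, against 35.8 ± 6.25 CPM in the controls, with edgeR adjusted p of 0.495 and 0.508. Of 16 regulators and partners of the shaft (Hoxc13, Foxn1, Lef1 and others) 0 were called and 11 had a lower mean, with a median of -0.02. The smallest p belonged to S100a3, a calcium-binding protein of the hair cuticle, with 103 ± 4.65 CPM in ecko, against 119 ± 20.6 CPM in the controls, and to Psors1c2, with 30.8 ± 4.65 CPM in ecko, against 36.2 ± 8.23 CPM in the controls.

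**Figure D4:**
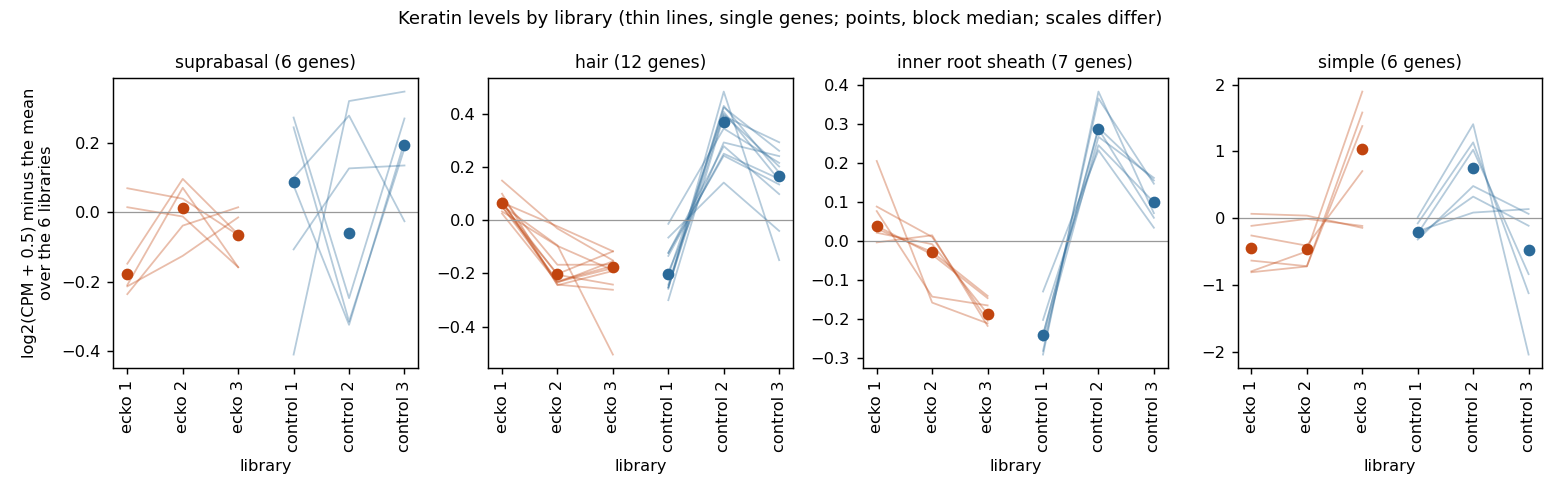
Log2(CPM + 0.5) of each keratin minus its mean over the 6 libraries, in 4 blocks, with thin lines joining the values of 1 gene within a group and points at the block median (ecko left, control right; vertical scales differ between panels). Control 2 is highest for 11 of the 12 hair genes and all 7 inner root sheath genes, while 4 of the 6 simple epithelial keratins are highest in ecko 3.

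The 7 inner root sheath keratins moved together from library to library, and all were lower on average in ecko, where the median log2 fold change was -0.12. Krt71 (chromosome 15, 101733949 to 101743097) had 1048, 1061 and 903 CPM in ecko, against 890, 1285 and 1170 CPM in the controls (-0.15 ± 0.13 SE, edgeR adjusted p 0.741). Its type I partner Krt25 (chromosome 11, 99315516 to 99322951) had 699, 685 and 605 CPM in ecko, against 577, 829 and 771 CPM in the controls (-0.13 ± 0.13 SE). In both, every ecko value lay between the lowest and the middle control. Krt27 had 352, 334 and 288 CPM in ecko, against 280, 405 and 345 CPM in the controls (-0.08 ± 0.13 SE). Krt73 had 291, 280 and 259 CPM in ecko, against 261, 335 and 292 CPM in the controls (-0.10 ± 0.09 SE).

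Control 2 was the highest library for all 7 inner root sheath genes and control 1 the lowest for 6. Krt72 had 90.4, 77.6 and 76.4 CPM in ecko, against 70.4, 111 and 95.0 CPM in the controls (-0.18 ± 0.16 SE). Krt28 had a log2 fold change of -0.11 and Krt26 -0.12. The block median was near 0 without control 2 (-0.005), -0.27 without control 1, and 0.05 in the 4 libraries with Y-linked reads. Of 12 other inner root sheath genes (Tchh, Gata3 and others) 0 were called and 8 were lower on average in ecko, at a median of -0.04. The protease inhibitor gene Cst6 had 90.7 ± 9.48 CPM in ecko, against 101 ± 14.5 CPM in the controls, and the transcription factor gene Cux1 253 ± 1.87 CPM in ecko, against 266 ± 17.03 CPM in the controls.

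Keratins of the outer follicle and of stressed epidermis also had lower means in ecko, 4 of 4, with a median of -0.13. That median was -0.24 without control 1, -0.07 without control 2 and -0.06 without both ecko 3 and control 2. Krt17, a keratin of the outer root sheath that is induced by injury, had 712, 719 and 712 CPM in ecko, against 689, 821 and 838 CPM in the controls (-0.13 ± 0.08 SE, edgeR adjusted p 0.634). Krt79, which marks the duct of the follicle opening, had 653, 609 and 643 CPM in ecko, against 573, 691 and 703 CPM in the controls (-0.05 ± 0.08 SE). Krt75, of the companion layer, had 216, 203 and 187 CPM in ecko, against 180, 252 and 232 CPM in the controls (-0.13 ± 0.12 SE). In these 3 genes control 1 was the lowest library and the other controls were the highest.

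Krt16, the wound-induced partner of keratin 6, varied more. It had 34.7, 48.3 and 31.0 CPM in ecko, against 53.6, 29.8 and 66.2 CPM in the controls (-0.39 ± 0.33 SE, edgeR adjusted p 0.748), and the lowest value of each group lay in ecko 3 and in control 2. The 2 keratin 6 genes fall outside the symbol rule and are named after their values were seen. Krt6a had 81.0, 75.5 and 65.8 CPM in ecko, against 93.0, 98.8 and 103 CPM in the controls, without overlap. Its log2 fold change was -0.41 ± 0.08 (SE), at an unadjusted edgeR p of 0.0005 and an edgeR adjusted p of 0.229. Krt6b had 258, 439 and 66.0 counts in ecko and 514, 50.1 and 335 counts in the controls, with far lower values in ecko 3 and control 2 than in the other 4 libraries. In Krt6a and in Krt6b 44.8% of the 50-base windows also occur in another keratin's transcripts, and each shares most with the other. Their counts are estimates of how reads divide between genes.

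Simple epithelial keratins varied widely from library to library within both groups. Of the 6 compared, 4 were higher on average in ecko, and the block had a median of 0.13 on the log2 scale. Krt18 had 59, 74 and 408 counts in ecko and 109, 305 and 19 counts in the controls, which is 3.28, 4.15 and 23.9 CPM in ecko, against 6.13, 16.9 and 1.10 CPM in the controls. Krt8 had 64, 68 and 355 counts in ecko and 111, 273 and 48 counts in the controls. Krt19, a type I keratin of ducts, had 55, 51 and 237 counts in ecko and 75, 194 and 45 counts in the controls, and Krt7, a type II keratin of ducts and glands, had 104, 92 and 201 counts in ecko and 103, 161 and 112 counts in the controls. All 4 were highest in ecko 3 and next highest in control 2, and Krt18 ran over a 21.8-fold range between libraries. Their log2 fold changes, 0.36 ± 1.26 for Krt18, 0.21 ± 1.03 for Krt8, 0.16 ± 0.89 for Krt19 and 0.10 ± 0.32 for Krt7 (SE), took either sign, depending on the library left out. Krt18 had -1.12 without ecko 3, 1.52 without control 2 and 0.04 without both. Without both, the median of the block was -0.06.

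The same 2 libraries were those almost without reads of the Y-linked gene Ddx3y. Its counts were 1641, 1445 and 6 in ecko and 1551, 4 and 1469 in the controls. They also stood out in a list of 20 genes of luminal gland epithelium, 18 of them in the table, which was drawn up after these values were seen. Of its 16 tested members, 12 had their highest values in ecko 3 and control 2. The share over all genes was not computed. This order held for 3 of 16 hair shaft regulators, 2 of 14 endothelial and 2 of 11 epithelial identity genes. It held for 1 of 4 Merkel cell, 1 of 12 inner root sheath and 1 of 20 filament partner genes. It held for 0 tested genes of the basal, suprabasal, mucosal, muscle and keratin-associated protein lists. The list was summed at 290, 275 and 360 CPM in ecko, against 286, 334 and 299 CPM in the controls, and 0 members were called between the groups. Foxa1, a transcription factor of gland epithelium, had 14, 23 and 177 counts in ecko and 39, 109 and 3 counts in the controls, and Csn3, the kappa-casein gene, had 10, 31 and 168 counts in ecko and 43, 130 and 0 counts in the controls. The milk protein genes Csn1s1 and Lalba were near 0, with 0 to 3 counts of Csn1s1 and 1 to 4 of Lalba. The smallest p for ecko against control in this list belonged to the Wnt ligand gene Wnt4 (83.2 ± 2.78 CPM in ecko, 93.2 ± 9.11 CPM in the controls) and to the lactoferrin gene Ltf (0.728 ± 0.608 CPM in ecko, against 1.29 ± 0.582 CPM in the controls). In the cartilage list 3 of 10 tested genes were also highest in these 2 libraries. The cartilage collagen gene Col9a1 had 12, 17 and 64 counts in ecko and 19, 38 and 12 counts in the controls, and Col9a2 had 48, 37 and 91 counts in ecko and 43, 84 and 42 counts in the controls. Both were named after their values were seen. What part sex or the tissue taken has in the keratin values was not tested. When Y-linked expression entered the fit as a covariate, the log2 fold changes were 0.06 for Krt8 and 0.28 for Krt18.

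**Figure D5:**
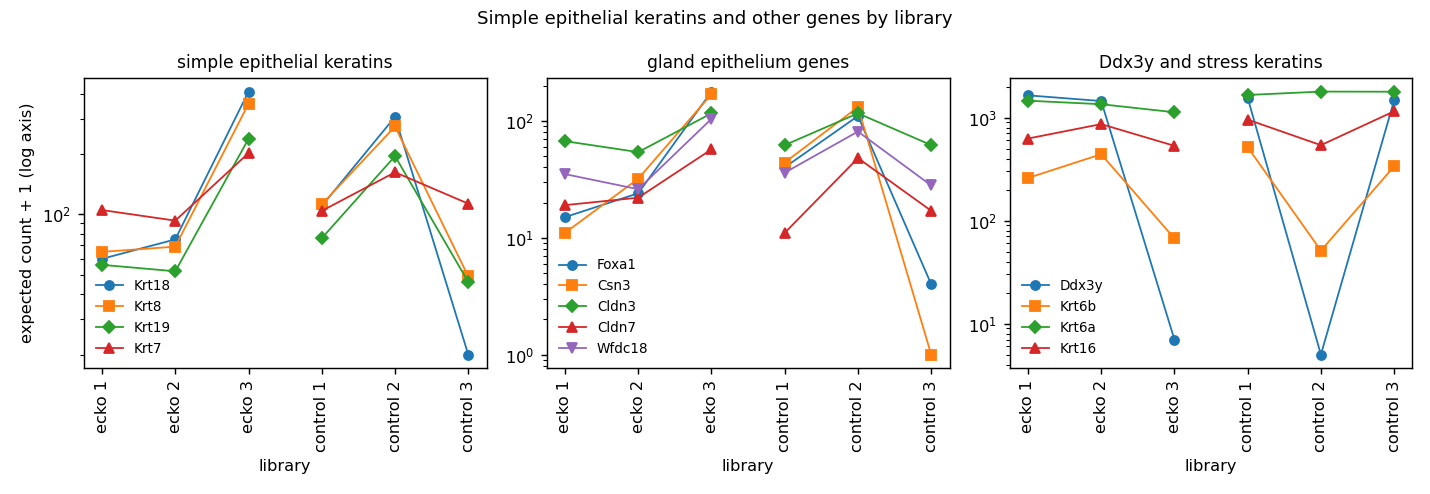
Expected counts plus 1 on a log axis by library (ecko left, control right) for simple epithelial keratins, for 5 genes of gland epithelium, and for the Y-linked gene Ddx3y with the stress keratins Krt6b, Krt6a and Krt16. The 5 gland genes are all from the members highest in ecko 3 and control 2, and members without that order are not drawn. Lines join libraries of 1 group. Krt18, Krt8, Foxa1 and Csn3 are highest in ecko 3 and control 2, the 2 libraries in which Ddx3y has 6 and 4 counts and Krt6b is lowest.

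The remaining simple and mucosal keratins did not share that pattern in full. Of the 4 mucosal and other keratins compared, 2 were lower on average in ecko, at a median of -0.09. Krt23 had 84.5, 82.9 and 72.9 CPM in ecko, against 70.4, 85.6 and 88.7 CPM in the controls (log2 fold change -0.03 ± 0.09 SE). Krt20, a keratin of Merkel cells and gut, had 20, 22 and 19 counts in ecko and 16, 35 and 23 counts in the controls (-0.27 ± 0.31 SE). Of 8 Merkel cell genes 4 were tested and 0 called. Atoh1, which was not tested, had 0 to 5 counts, while Sox2 had 35 to 57 and Chga 79 to 123. Piezo2 had 17.2 ± 0.11 CPM in ecko, against 15.8 ± 0.13 CPM in the controls, without overlap. Isl1 had 0.987 ± 0.288 CPM in ecko, against 0.749 ± 0.203 CPM in the controls. Krt12, the corneal keratin, had 14, 22 and 45 counts in ecko and 30, 41 and 47 counts in the controls (-0.53 ± 0.40 SE). Krt222 had 31, 28 and 16 counts in ecko and 21, 26 and 18 in the controls (0.21 ± 0.29 SE). Krt90 had 15, 23 and 16 counts in ecko and 18, 19 and 30 in the controls (-0.30 ± 0.32 SE). Krt4, a mucosal keratin, had 16, 16 and 18 counts in ecko and 21, 17 and 8 in the controls (0.13 ± 0.35 SE). In these 4 low genes the groups overlapped. Genes of mucosal epithelium other than keratins differed widely in level. Pax9 was low, at 1 to 4 counts, whereas Prom1 and Cldn4 were far higher. Of 4 tested, Elf3 had 3.56 ± 0.08 CPM in ecko, against 2.56 ± 0.47 CPM in the controls and Cldn4 65.5 ± 4.18 CPM in ecko, against 70.6 ± 13.9 CPM in the controls, and 0 were called.

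Among 20 partners of keratin filaments, such as desmosomal plaque proteins and plectin, 0 were called and 12 were lower on average in ecko, the median log2 fold change being -0.03. Sfn, the stratifin gene of keratinocytes, had 453 ± 27.8 CPM in ecko, against 510 ± 12.5 CPM in the controls, without overlap, and Eppk1, the epiplakin gene, which binds keratins, had 34.9 ± 0.95 CPM in ecko, against 31.6 ± 0.07 CPM in the controls, also without overlap. Their edgeR adjusted p were 0.513 and 0.593. In the cartilage list, 0 of 10 tested genes were called and the median was 0.02, with the aggrecan gene Acan at 15.5 ± 0.47 CPM in ecko, against 16.7 ± 1.91 CPM in the controls and the chondrocyte regulator Sox9 at 67.8 ± 5.55 CPM in ecko, against 62.6 ± 12.6 CPM in the controls. In the endothelial list without Kdr, 0 of 14 were called, 13 had a lower mean in ecko, and the median was -0.17. Groups did not overlap in 6 of the 14, all lower in ecko, against 8.11% of all genes on that side. The endothelial receptor gene Robo4 had 18.7 ± 1.07 CPM in ecko, against 22.9 ± 1.96 CPM in the controls, without overlap. Plvap, of the diaphragms of capillary pores, had 38.0 ± 1.91 CPM in ecko, against 44.0 ± 1.49 CPM in the controls, also without overlap.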

How the data were processed

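Poly(A) RNA of ear skin was sequenced in 6 libraries, 3 ecko and 3 control. The deposited values are unscaled expected counts per gene, judged so because 10.1% to 10.4% of them in a library are fractional. RSEM 1.3.1, Bowtie2 2.4.5, HISAT2 2.2.1 and the build GRCm38.p6 appear in the submitters' processing notes, without their roles; annotation and strand setting are not given in the sources used here.

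Counts were rounded and tested over all genes with edgeR 4.0.16 in R 4.3.3 (filterByExpr with a minimum count of 10, TMM, glmQLFit with robust estimation, two-sided quasi-likelihood test, Benjamini-Hochberg adjustment, threshold 0.05). Each SE was taken as |log2 fold change| over the root of the F statistic. CPM uses TMM-scaled library sizes. Coding lengths and 50-base windows come from GENCODE M21, the longest coding transcript giving the length. Levels have n = 3 per group. Without molecular identifiers, counting limits cover sampling of reads alone.

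Keratins with a mean count of at least 10 are all named. Values per library are given for the 4 most abundant and the 2 with the smallest p in each block, and other lists are represented by their 2 genes with the smallest p. Members, blocks and lists were chosen with earlier results of these data known. The edgeR step was tested on simulated data. Alternatives were DESeq2 1.42.0 (size factors, Wald test), limma-voom (limma 3.58.1), library totals, other filters, no robust estimation, scaling without the 20 most abundant genes, a replicate block and leaving out each library. Coding length was replaced by transcript length, and Y-linked reads were used as a covariate or to leave out 2 libraries, after the data were seen.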

Additional observations from a re-analysis of the deposited data

How the results depend on the processing

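Under every alternative run, 0 keratins were called in either direction, and the smallest adjusted p was 0.116 (Krt77, without control 1). Between 26 (4 libraries with Y-linked reads) and 37 (without ecko 3, or without control 3) of the keratins had a lower mean in ecko. Over all genes, calls higher and lower in ecko numbered 87 and 26 with DESeq2, 88 and 10 with the replicate block, 2 and 2 in the 4 libraries with Y-linked reads, and 1 higher with the Y-linked covariate. Leaving out 1 library gave 0 to 2 higher and 1 lower. Deviations of equally numbered libraries correlated, across genes, at 0.168, -0.275 and -0.055, so the numbers were not taken as pairs; the block turned Krt8 to -0.026.

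Block medians ran, with 1 library left out, from -0.39 to -0.10 for hair, -0.27 to -0.005 for the inner root sheath, -0.24 to -0.07 for the companion layer and stress, -0.20 to -0.07 for suprabasal and -0.15 to -0.07 for basal keratins. For simple epithelial keratins they ran from -0.68 (without ecko 3) to 0.62. The mucosal median was -0.30 with the filter of 1 CPM, which left fewer genes.

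In the 4 libraries with Y-linked reads the inner root sheath genes had a higher mean in ecko: Krt71 0.034, Krt25 0.038, Krt27 0.13, Krt73 0.047, Krt28 0.046, Krt72 0.023 and Krt26 0.13. So did Krt75 (0.024), Krt36 (0.12), Krt40 (0.25), Krt23 (0.072) and Krt20 (0.078), while Krt8 (-0.29), Krt7 (-0.16), Krt19 (-0.20) and Krt78 (-0.088) were lower. Limma-voom gave -0.011 for Krt19. With 1 library left out the sign turned in Krt10 (-0.25 to 0.0070), Krt26 (-0.28 to 0.054), Krt27 (-0.21 to 0.050), Krt36 (-0.11 to 0.049), Krt40 (-0.24 to 0.19), Krt79 (-0.14 to 0.013), Krt78 (-0.13 to 0.13), Krt4 (-0.16 to 0.42), Krt20 (-0.50 to 0.050), Krt23 (-0.12 to 0.044), Krt7 (-0.37 to 0.31), Krt8 (-1.13 to 1.05), Krt18 (-1.12 to 1.52) and Krt19 (-0.98 to 0.94). The cause was not tested.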
